A study of Mus musculus with 3 samples.

Results

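The actin, myosin and tropomyosin genes form the contractile cytoskeleton of a cell. Members were all protein-coding mouse genes whose symbol is that of an actin, an alpha-actinin (Actn1 to Actn4), a tropomyosin, a myosin heavy or light chain, an unconventional myosin, a calponin or a transgelin. There were 70 such genes among 21725 protein-coding symbols with a row, and the skeletal muscle actin gene Acta1 was not analysed here. Of the 70 members, 28 had a mean level of at least 1 over the 3 libraries and are called measured. Levels are scaled FPKM, fragment counts corrected for transcript length and for library depth, then divided by 1 factor per library.

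Wild-type mice of strain C57BL/6, 7 weeks old, gave the epidermis of the back skin in the second telogen, the resting phase of the hair cycle. The epidermis was lifted off the dermis with thermolysin, and its cells were sorted on CD34 and the alpha 6 integrin chain (Itga6). N are the CD34-negative cells, called non-stem cells by the submitters. B are CD34-positive cells with high Itga6, the basal stem cells of the hair follicle bulge, and S are CD34-positive cells with low Itga6, its suprabasal stem cells. RNA of 4 mice was pooled per population, so each population was 1 library, the spread between mice is not measured, and no difference below carries a test, a p-value or a replicate error. In sorted bulk RNA, fewer cells of a type and less RNA per cell cannot be told apart.

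Actin filaments built from the cytoplasmic beta and gamma actins are coated by tropomyosin dimers and cross-linked by alpha-actinin. Non-muscle myosin 2, a hexamer of heavy chains with essential and regulatory light chains, pulls on them, and phosphorylation of the regulatory light chain by kinases such as MLCK and ROCK switches it on. In keratinocytes this machinery shapes the cell cortex, anchors cell junctions and adhesions to the matrix, and carries tension between layers. Unconventional myosins also bind actin, and work on membranes, organelles and signalling proteins. The other heavy chains, light chains and actins of the family belong to striated or smooth muscle.

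Depth read from the steps between low values, with the B values taken as FPKM, was about 35350000 fragments for N, 32700000 for B and 31350000 for S. A transcript of 2 kb at 1 FPKM then rests on 70.7, 65.4 and 62.7 fragments, a counting SD of 11.9% to 12.6% that leaves out amplification and differences between mice. Cd34 was at 0.201 in N, at 144 in B and at 215 in S, and the bulge stem cell gene Lgr5 at 1.05, 36.5 and 40.8, the order of the CD34 gate. Itga6 was at 115 in N, at 49.3 in B and at 33.1 in S. Krt14, a keratin of basal cells, was at 588, 277 and 12.7. The keratin genes Krt5 (818, 810 and 959) and Krt15 (1014, 1855 and 3641) of the same marker list went the other way and were highest in S.

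The members that stood out by size were the alpha-actinin gene Actn1, the heavy chain gene Myh14 and the light chain gene Myl9, which were far higher in both bulge libraries than in N. Tpm2 was highest in basal bulge cells, Myo9a in suprabasal bulge cells, and the calponin gene Cnn2 in CD34-negative cells. These 6 were among the 7 measured members whose log2 ratio reached 1, up or down, in some comparison. That joint count was not made over all genes, so whether it is large cannot be said. Shares of all genes are given below for each comparison. The ratio was taken of scaled FPKM plus 1, which understates the difference of low genes. The other 21 measured members stayed within that bound in all 3 comparisons, among them both cytoplasmic actins.

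**Figure D1:**
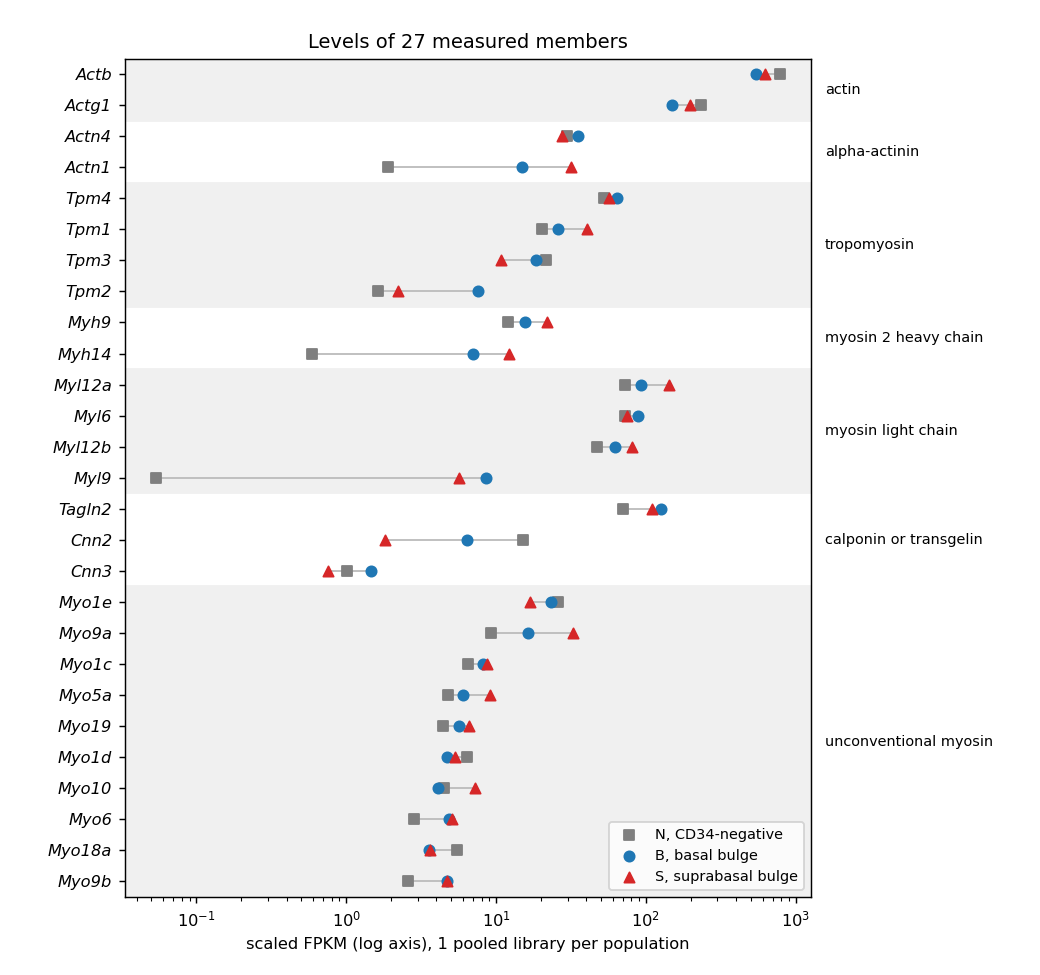
Level of 27 of the 28 measured members in scaled FPKM on a log axis, grouped by role, with 1 point per pooled library (grey squares N, blue circles B, red triangles S) and a line joining the lowest and highest library. The long lines are those of Myl9 (0.0538 in N, 8.53 in B and 5.64 in S), Myh14, Actn1 and Cnn2, while the actins at the top lie close together.

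Members were counted as at least 2-fold different by the log2 ratio of scaled FPKM plus 1. Between B and N, 5 of 28 measured members were higher in B, among them Actn1, Myh14, Myl9 and Tpm2, and 1 was lower (Cnn2). Of the 9916 measured protein-coding genes, 6.3% were higher and 5.31% lower in that comparison. Between S and N, 4 of 28 were higher in S (Actn1, Myh14, Myl9 and Myo9a) and 1 lower (Cnn2), against 9.1% and 8.91% of all. Between S and B, 1 of 28 was higher in S (Actn1) and 3 were higher in B, among them Tpm2 and Cnn2, against 2.86% higher in S and 4.44% higher in B of all. The median log2 ratio of the measured members was 0.29 for B over N, 0.50 for S over N and 0.06 for S over B. Over all measured protein-coding genes the median was -0.03, 0.06 and 0.08. The first 2 comparisons share the N library. Of the measured members, 4 had a library below 1, and Myl9 and Myh14 in N were among them. Except for Cnn3, which lay near the limit throughout, such genes were measured only through the library or libraries in which they were high. Their difference is thus partly set by the filter, and the counts are given as a description.

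**Figure D2:**
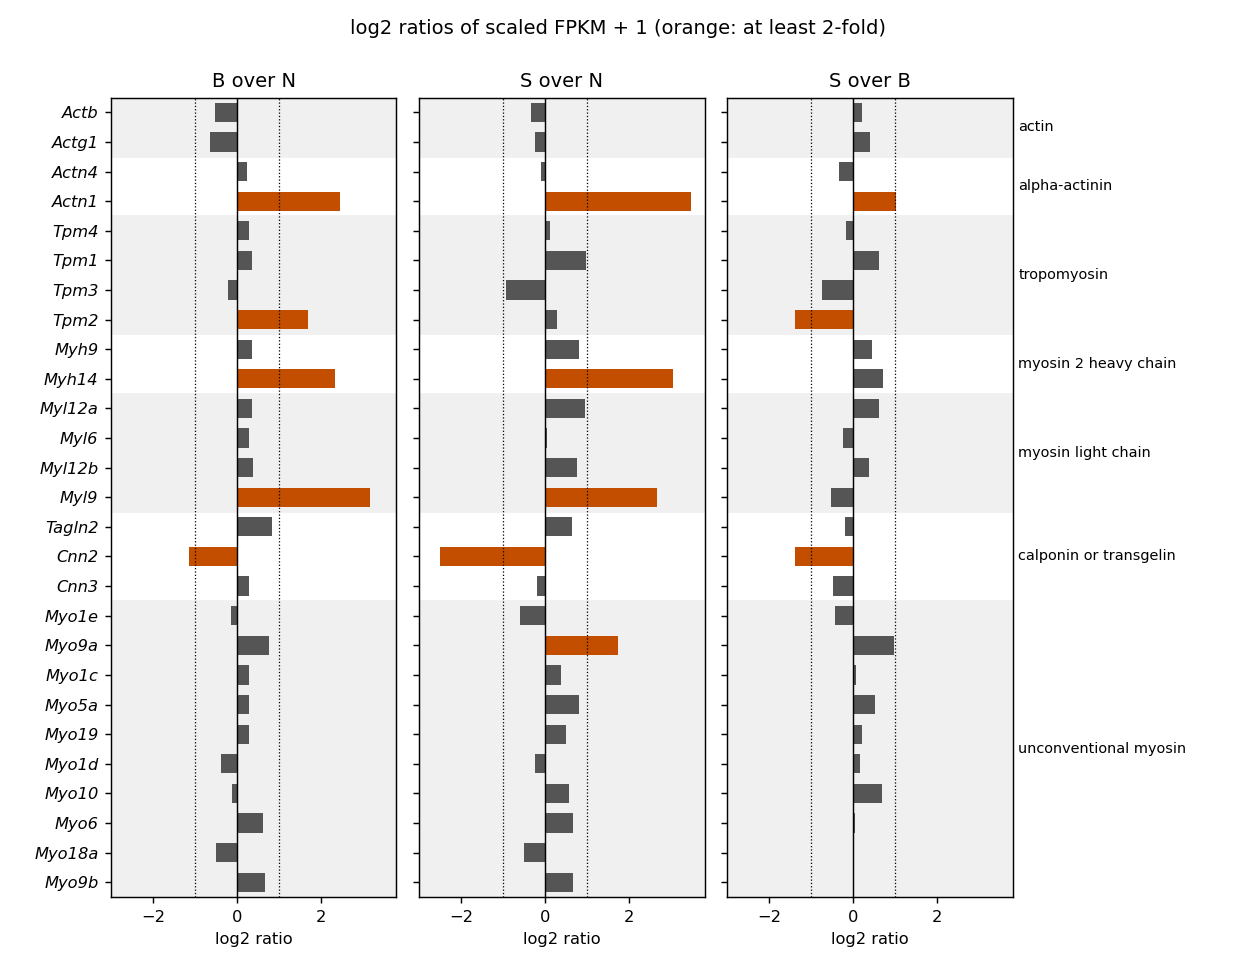
Bars give the log2 ratio of scaled FPKM plus 1 for the same 27 members, in 1 panel each for B over N, S over N and S over B. Dotted lines mark 2-fold and orange bars pass it: 5 of them in B over N, 5 in S over N and 3 in S over B, with Actn1 at 2.46, 3.47 and 1.02.

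Both cytoplasmic actin genes were abundant and highest in CD34-negative cells. Actb, the beta actin gene on chromosome 5 (142903115 to 142906754, mm10), was at 784 in N, at 544 in B and at 625 in S, and it was the most abundant member. Actg1, the gamma actin gene on chromosome 11 (120345690 to 120348542), was at 233 in N, at 148 in B and at 197 in S. Both genes were lowest in B, and their levels lay within 1.57-fold of each other across the libraries. Actb held 77.1% of the summed FPKM of this pair in N, 78.6% in B and 76.1% in S, a share that does not depend on the scaling between libraries. Of the muscle actins, Acta2 (smooth muscle alpha actin) was at 0.499 in N, at 0.185 in B and at 0.103 in S, Actg2 at 0.0270 in B alone, and the cardiac gene Actc1 was listed at 0 in all 3.

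Actn1 had the largest log2 ratio of all members in S over N with 1 added to each level. With 0.1 added instead, Myl9 (5.22) and Myh14 (4.15) lay above Actn1 (3.97). The product of Actn1 is alpha-actinin 1, which cross-links actin filaments in stress fibres and focal adhesions. Actn1, on chromosome 12 (80167542 to 80260371), was at 1.91 in N, at 15.0 in B and at 31.4 in S, which is 7.83-fold and 16.4-fold above N. The 3 levels rest on about 279, 1796 and 3391 fragments if the longest annotated coding transcript is taken. Actn4, the other non-muscle alpha-actinin, was at 29.5 in N, at 35.1 in B and at 27.5 in S. Its levels differed little, so the make-up of the pair changed: Actn1 held 6.09% of the summed FPKM of both genes in N, 29.9% in B and 53.3% in S. Actn2 and Actn3, the muscle genes, were at most 0.122. The step from B to S in Actn1 (2.09-fold, log2 ratio 1.02) lay at the 2-fold bound and fell under it in 4 of 6 other scalings, pseudocounts and row choices, with a range of 0.86 to 1.06.

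Of the non-muscle myosin 2 heavy chain genes, Myh14 passed 2-fold over N in both bulge libraries and Myh9 in neither. Myh9, which encodes the main non-muscle heavy chain (2A), was at 12.1 in N, at 15.6 in B and at 21.7 in S. Myh14, on chromosome 7 (44605803 to 44670843), encodes the 2C chain known from epithelia and was at 0.591 in N, at 7.05 in B and at 12.2 in S, which is 11.9-fold and 20.6-fold above N. The N level rests on about 150 fragments and those of B and S on about 1469 and 2288. Myh10, the gene of the 2B chain, had a mean just under 1 and was not counted as measured, at 0.563, 1.29 and 1.13. The summed FPKM of the 3 genes was 13.2 in N, 24.0 in B and 35.01 in S. Myh14 held 4.47% of that sum in N, 29.4% in B and 34.7% in S, while Myh9 held 91.3%, 65.2% and 62.0%.

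The heavy chains of muscle were near or at 0. Myh11, the smooth muscle heavy chain, was at 0 in N, at 0.0277 in B and at 0.00512 in S, the last 2 resting on about 5.81 and 0.970 fragments. Of the skeletal and cardiac genes, Myh3, Myh4 and Myh6 were listed at 0 in all 3 libraries, and Myh1 and Myh2 did not exceed 0.0904. In all, 12 of 14 heavy chain genes were not measured.

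**Figure D3:**
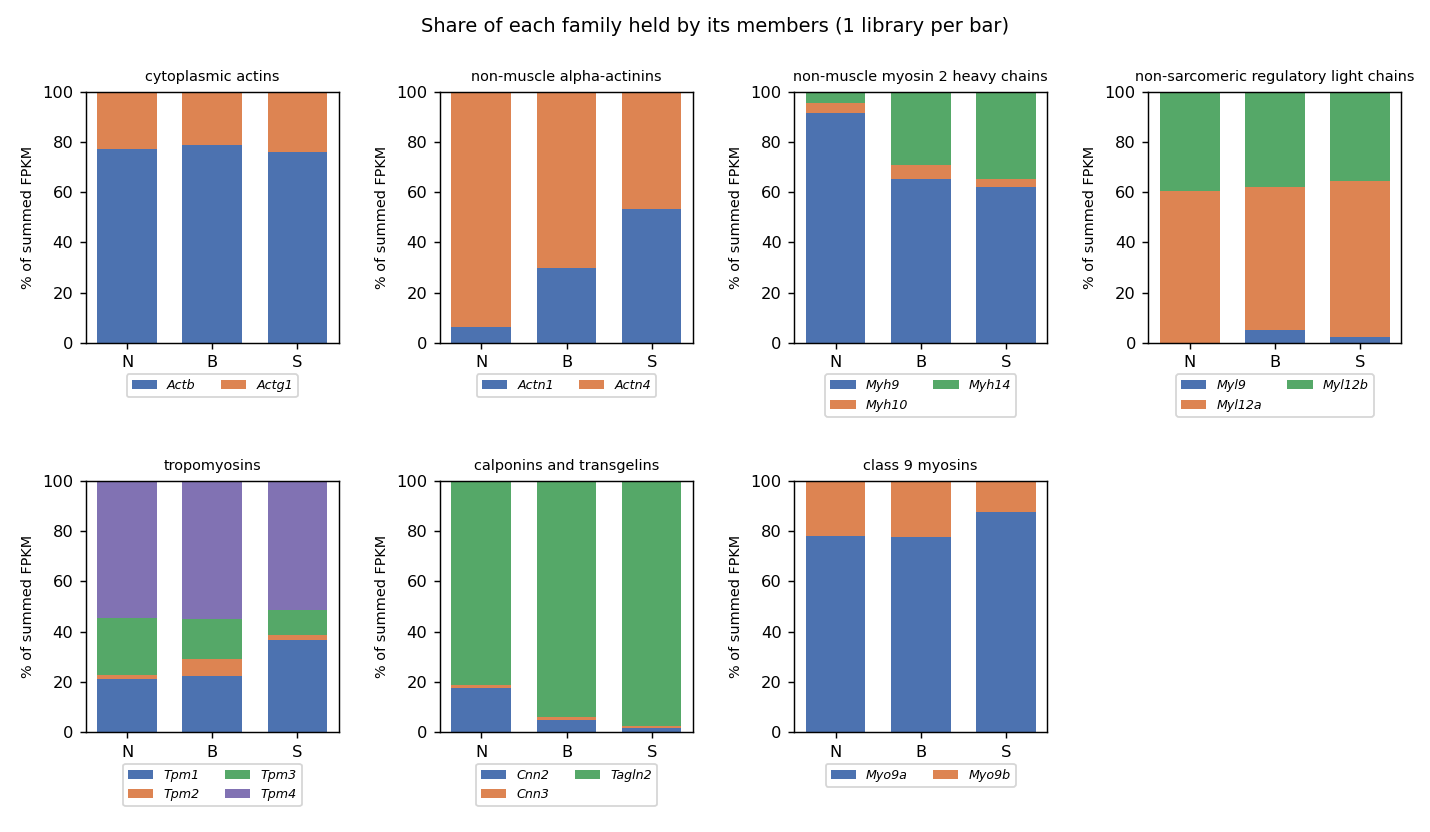
Each panel is 1 family, each bar 1 pooled library (N, B, S), and the coloured segments give the percent of the family's summed FPKM held by each gene. The alpha-actinin and heavy chain panels change most between N and the bulge libraries (Actn1 6.09%, 29.9% and 53.3%; Myh14 4.47%, 29.4% and 34.7%), and the actin panel least (Actb 77.1%, 78.6% and 76.1%).

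Regulatory light chains sit on the neck of the heavy chain, and the sites that MLCK and ROCK phosphorylate lie near their amino end. The 3 non-sarcomeric genes, Myl12a, Myl12b and Myl9, have coding sequences of one length, 519 bases, in the annotation used (GENCODE M21). Their first 90 bases are shown from the start codon, since the closeness of Myl12a and Myl12b limits how far their levels can be told apart and Myl9 has the largest log2 ratio of the members in B over N. Capitals mark bases that differ from Myl12a, 4 in Myl12b and 13 in Myl9.
Myl12a: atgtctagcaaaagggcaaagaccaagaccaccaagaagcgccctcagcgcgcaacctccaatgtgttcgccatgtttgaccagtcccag
Myl12b: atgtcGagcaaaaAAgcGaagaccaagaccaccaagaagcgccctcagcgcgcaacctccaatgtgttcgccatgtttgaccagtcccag
Myl9: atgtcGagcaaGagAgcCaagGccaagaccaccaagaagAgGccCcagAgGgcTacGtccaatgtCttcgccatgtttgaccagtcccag

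Over the whole coding sequence Myl12a and Myl12b were 96.5% identical, and Myl9 was 85.5% identical to Myl12a and 86.3% to Myl12b. Myl12a and Myl12b lie side by side on chromosome 17 (70993656 to 71002878 and 70973920 to 70990787). Of the distinct stretches of 75 bases, the read length, in the coding transcripts of Myl12a, 17.1% also occur in Myl12b. A single read from such a stretch matches both genes. Reads were paired, and whether the other read of the pair settles the gene was not looked at. No stretch of 75 bases of Myl9 occurs in another gene of the annotation.

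Myl9 was near 0 in N and clearly present in both bulge libraries. The gene, on chromosome 2 (156775420 to 156781658), was at 0.0538 in N, at 8.53 in B and at 5.64 in S. The N value corresponds to about 2.37 fragments, so no fold is given against it, while B and S rest on about 309 and 184 fragments. B was 1.51-fold above S. Even so Myl9 was the minor regulatory light chain, with 0.0447% of the summed FPKM of the 3 genes in N, 5.21% in B and 2.46% in S. Myl12a was at 72.8 in N, at 92.9 in B and at 142 in S, and Myl12b at 47.5, 62.2 and 81.3, both lowest in N and highest in S and neither past 2-fold. Myl12a in S over N had a log2 ratio of 0.96, just under the bound. The essential light chain gene Myl6 was at 72.7, 89.1 and 75.1, a spread of 1.23-fold. Of the other 7 light chain genes, which serve mostly muscle, 4 were listed at 0 throughout and none exceeded 0.587.

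Since Myl9 is known as a smooth muscle gene, markers of smooth muscle and pericytes that are not members were looked at beside it. Of 14 such genes 3 were measured (Smtn, Notch3 and Cspg4), and their summed level was 6.65 in N, 9.79 in B and 10.5 in S. Of these 3, Cspg4 was higher in both bulge libraries, at 0.648 in N, at 5.38 in B and at 5.47 in S. Smtn was at 1.13, 2.08 and 0.656, and Notch3 at 3.30, 0.851 and 2.61. The other 11 were below 1 in every library. Casq2 (0, 0.224 and 0.395) and Myocd (0, 0.00890 and 0.321) were higher in the bulge libraries, and Synpo2 was highest in B at 0.562. Des was at most 0.0541, Lmod1 at most 0.00876, Rgs5 at most 0.0435 and Pdgfrb at most 0.0252, beside the members Tagln at most 0.0465 and Myh11 at most 0.0277. Of 13 skeletal muscle genes 0 were measured, the highest being Neb at 1.07 in N, and their summed level was 2.11 in N, 1.01 in B and 2.08 in S.

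Among markers of other cell types that a sort could hold, the fibroblast and melanocyte lists were also higher in both bulge libraries. Of 8 fibroblast genes 3 were measured, all higher in B and S, and the summed level was 0.843 in N, 23.3 in B and 34.3 in S. Most of it came from Col6a1 (13.9 in B and 25.9 in S) and Col6a2 (7.28 and 5.77), and Col1a2 was at 0.103 in N, at 1.77 in B and at 1.34 in S. Col1a1 was at most 0.115 and Pdgfra at most 0.442. The melanocyte list summed to 2.41 in N, 17.7 in B and 35.5 in S, of which Mitf made 2.08, 16.4 and 34.4, and the pigment genes Dct, Tyr, Tyrp1, Pmel and Mlana were each at most 0.513. The differentiated keratinocyte list, with 6 of 7 genes measured, summed to 3587 in N, 1634 in B and 871 in S. In S against N, 3 were at least 2-fold lower: Krtdap (2868, 1134 and 337), Krt1 (258, 140 and 13.3) and Krt10 (372, 233 and 55.9). Sbsn was the 1 that was higher, at 84.9, 122 and 460. The part of these lists in the levels of Actn1, Myh14 and Myl9 was not tested. Immune genes summed to 23.7 in N, 11.3 in B and 17.5 in S (3 of 10 measured), endothelial genes to at most 2.69, highest in B (Ramp2), Merkel cell genes to at most 0.148, and the Schwann cell list to 11.5, 5.65 and 6.02, mostly Erbb3.

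Tropomyosins differed in order from gene to gene. Tpm4, which gives short cytoplasmic isoforms, was the most abundant, at 52.3 in N, at 63.6 in B and at 56.5 in S. Tpm1 was at 20.2, 26.0 and 40.4, and Tpm3 went the other way at 21.6, 18.6 and 10.8. Tpm2 was at 1.63 in N, at 7.52 in B and at 2.23 in S, so B exceeded N by 4.60-fold and S by 3.37-fold. Tpm2 was the tropomyosin that marked the B library, while S and N lay within 1.36-fold of each other. In S against N, Tpm1 and Tpm3 moved in opposite directions with log2 ratios of 0.97 and -0.94, both just inside the bound. Without the pseudocount each differed by 2.00-fold. Tpm1 passed the bound on the same total of nuclear protein-coding genes, and Tpm3 with values as deposited. Tpm1 held 36.8% of the summed tropomyosin FPKM in S against 21.1% in N, and Tpm3 9.81% against 22.6%. Files of this kind give 1 value per gene, so the muscle and cytoplasmic isoforms that each tropomyosin gene makes were not separated. Of the distinct stretches of 75 bases in Tpm3 transcripts, 33.3% also occur in Tpm3-rs7, a near copy listed at no more than 0.185. A single read from such a stretch thus matches both genes, and read pairs were not looked at. That share counts stretches, not reads, and does not measure the error on the level of Tpm3.

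Calponins and transgelins bind along actin filaments. Tagln2, the transgelin of non-muscle cells, was at 70.3 in N, at 125 in B and at 109.7 in S. Cnn2, on chromosome 10 (79988584 to 79996062), encodes a calponin of non-muscle cells and was at 15.1 in N, at 6.35 in B and at 1.82 in S. Among the measured members it alone was at least 2-fold lower in each bulge library than in N, 2.38-fold in B and 8.31-fold in S, and B exceeded S by 3.49-fold. Cnn3 was close to the lower limit, at 1.02, 1.45 and 0.758. The smooth muscle genes Cnn1 and Tagln were at most 0.463 and 0.0465, and Tagln3 was listed at 0.

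Many actin and myosin genes of muscle carry a CArG box near their start, the element bound by serum response factor (SRF), which consists of CC, 6 letters that are A or T, and GG. The 250 bases before the annotated RefSeq starts (GRCm38.p6, the build named mm10) were searched for it. The pattern reads as a CArG box on both strands at once, so 1 search covers both. It was found in 9 of the 59 members with a promoter sequence, or 15.3%, and in 5 of the 25 measured ones, against 1.62% of 27025 genes and 1.47% of 32851 promoters. The 5 were Actg1, Cnn2, Myl6, Myl9 and Myo1e, and the other 4 were the muscle genes Actc1, Myh4, Myl3 and Myl7. Myl9 and Cnn2 are shown because N stood at opposite ends, lowest for Myl9 and highest for Cnn2, while both were higher in B than in S. Each stretch ends before the start of the gene in the deposited files, the box is in capitals, and both are on the plus strand, at chr2:156775214-156775419 for Myl9 and chr10:79988350-79988583 for Cnn2.
Myl9: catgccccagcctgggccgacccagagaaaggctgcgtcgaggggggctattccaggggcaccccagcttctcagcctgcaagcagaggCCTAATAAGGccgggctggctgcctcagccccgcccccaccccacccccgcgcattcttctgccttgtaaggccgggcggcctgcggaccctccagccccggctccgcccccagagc
Cnn2: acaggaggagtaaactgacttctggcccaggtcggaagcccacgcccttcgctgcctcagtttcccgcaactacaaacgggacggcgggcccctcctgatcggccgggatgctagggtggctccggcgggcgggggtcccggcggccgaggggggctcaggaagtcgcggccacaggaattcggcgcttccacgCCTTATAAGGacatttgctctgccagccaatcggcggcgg

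The box of Myl9 begins 161 bases and that of Cnn2 begins 56 bases before the RefSeq start. The other measured members with a box are given with 10 bases on each side, on the strand of the gene, at chr11:120348566-120348595 (minus) for Actg1, chr10:128493040-128493069 (minus) for Myl6 and chr9:70207308-70207337 (plus) for Myo1e. The Myl6 box lies before a second annotated start inside the gene.
Actg1: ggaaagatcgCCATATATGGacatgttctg
Myl6: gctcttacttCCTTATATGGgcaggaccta
Myo1e: gctgaattctCCATTTATGGacagattgcc
Of these 5 genes, Myl9 was higher in the bulge libraries, Cnn2 was lower, and Actg1, Myl6 and Myo1e were within 1.57-fold of N. A match describes the letters in this window and no binding was measured.

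Among the unconventional myosins, 11 of 25 were measured. Myo9a and Myo9b encode class 9 myosins. Myo9a, on chromosome 9 (59750896 to 59928866), was at 9.19 in N, at 16.2 in B and at 32.7 in S, 3.56-fold higher in S than in N. In S the level was 2.02-fold that of B, but the log2 ratio of 0.97 lay just under the bound. It passed the bound in 1 of 6 other scalings, pseudocounts and row choices, at 1.01 with a pseudocount of 0.1. Myo9b was at 2.59, 4.69 and 4.70, with B and S at the same level. The share of Myo9a in the pair was 78.04% in N, 77.6% in B and 87.5% in S.

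Class 1 myosins link the plasma membrane to actin, and their genes showed no common order. Myo1e was the most abundant unconventional myosin in N and B, at 25.8 in N, at 23.1 in B and at 16.8 in S. Myo1c was at 6.47, 8.16 and 8.65, and Myo1d at 6.39, 4.67 and 5.30. Myo1f and Myo1g, known from blood cells, were at most 0.0907 and 0.414, both highest in N. Of the 3 measured immune genes, H2-Aa (13.5, 4.81 and 4.51) and Cd74 (6.19, 3.03 and 3.99) were highest in N, and Cd68 (1.69, 2.11 and 6.02) in S. The rest of the 10 were not measured. Of those, Ptprc (0.562, 0.125 and 0.480) and Cd3e (1.18, 0.292 and 0.487) were highest in N, and Cd3g (0.106, 0.482 and 0.311) in B. Cd207, Itgam, Lyz2 and Coro1a were highest in S, at no more than 0.756.

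Of the cargo and organelle motors, Myo5a (class 5, which moves melanosomes and vesicles) was at 4.77 in N, at 6.03 in B and at 9.14 in S. Myo6, the motor that walks towards the minus end, was at 2.84, 4.87 and 5.06. Myo10, which builds filopodia, was at 4.48, 4.09 and 7.19, and Myo19, the motor of mitochondria, at 4.41, 5.62 and 6.59. Myo18a was the reverse, at 5.51, 3.57 and 3.61. These 5 genes stayed within 2-fold in each comparison. Myo7a, known from sensory hair cells, had a mean under 1 but reached 1.66 in S, against 0.0898 in N and 0.548 in B, and with Myh10 it was 1 of 2 unmeasured members with a library of at least 1. The remaining 40 unmeasured members were below 1 in every library, and 11 of the 42 were listed at 0 in all 3.

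Sequence shared with other genes bears on some levels. Of the 28 measured members, 14 share no stretch of 75 bases with the annotated transcripts of another gene, among them Myl9, Myh14, Tpm2 and Cnn2. For Actn1 the share was 8.13%. In 7 members it was over 10%, with the highest share, 42.7%, in Actg1, mostly with the predicted gene Gm12715 (37.5%), which was listed at 5.96 in N, at 4.39 in B and at 6.02 in S. How the authors' counting treated such reads is not given in the sources used here.

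Genes that act on the same filaments were taken from 5 lists, which share some genes, and were read against the same background of all measured protein-coding genes. In that background 6.3% were higher and 5.31% lower in B than in N, with a median of -0.03. For S against N the shares were 9.1% and 8.91%, with a median of 0.06. The list counts are small and are given as a description. Control of light chain phosphorylation had 27 measured genes, of which 2 were at least 2-fold higher in B than in N and 1 lower, with a median log2 ratio of -0.07, and 2 were higher and 1 lower in S, with a median of 0.26. Dapk2, a kinase of the death-associated family, was at 1.92 in N, at 12.9 in B and at 29.5 in S, the same order as Actn1 and Myh14. Arhgef11, a guanine nucleotide exchange factor gene, was at 5.12, 14.1 and 9.12. Stk17b, another kinase of the death-associated family, was at 4.23, 3.69 and 9.27. Rnd3, whose product opposes ROCK, was at 79.8, 62.1 and 40.0. Genes named for their role, outside the rule, were Rock1 at 6.95, 8.05 and 9.11, Rock2 at 6.24, 9.63 and 9.42, and the light chain kinase gene Mylk at no more than 0.232.

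Actin assembly and turnover had 40 measured genes, with 3 higher and 2 lower in B than in N (median -0.21) and 4 higher and 3 lower in S (median -0.17). Both medians were negative, as were the ratios of Actb and Actg1. Tmsb4x, which encodes the monomer-binding thymosin beta 4, was at 368 in N, at 552 in B and at 892 in S. The profilin gene Pfn2 was at 4.32, 13.8 and 31.0, and Enah, which promotes filament growth, at 6.47, 15.2 and 22.7. Scin, a severing protein gene, went down that series at 16.8, 4.78 and 1.61.

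Other actin-binding and cross-linking proteins had 30 measured genes, 5 higher and 3 lower in B than in N (median -0.01) and 6 higher and 5 lower in S (median 0.07). The cross-linker gene Pls3 (21.2 in N, 42.1 in B and 91.8 in S) and the linker gene Macf1 (11.2, 34.1 and 47.8) were highest in S. Pdlim1, which binds alpha-actinin, was at 60.8, 29.1 and 19.3, the opposite order to Actn1.

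The focal adhesion list had 22 measured genes, 5 higher and 0 lower in B than in N (median 0.24) and 5 higher and 1 lower in S (median 0.24). Zyx, whose product zyxin binds alpha-actinin, was at 4.95 in N, at 15.4 in B and at 24.1 in S. The tensin genes Tns1 (7.04, 27.3 and 32.2) and Tns2 (0.791, 9.56 and 5.50) were higher in both bulge libraries, and the integrin chain gene Itga3 was lowest in S at 12.3, 9.63 and 1.64.

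SRF, its cofactors and known targets had 21 measured genes, 7 higher and 1 lower in B than in N (median 0.15) and 5 higher and 5 lower in S (median 0.17). The matricellular gene Ccn2 was at 2.73 in N, at 147 in B and at 18.6 in S, and its relative Ccn1 at 53.1, 61.3 and 7.67. Fhl1, a LIM-domain gene, was at 3.10, 8.20 and 20.3, and Filip1l at 14.6, 31.1 and 100.04. Srf itself, named outside the rule, was at 4.95, 2.82 and 3.26. Ccn2 shares with Tpm2 a highest level in B, while Fhl1 and Filip1l were highest in S, so the list held no single order.

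**Figure D4:**
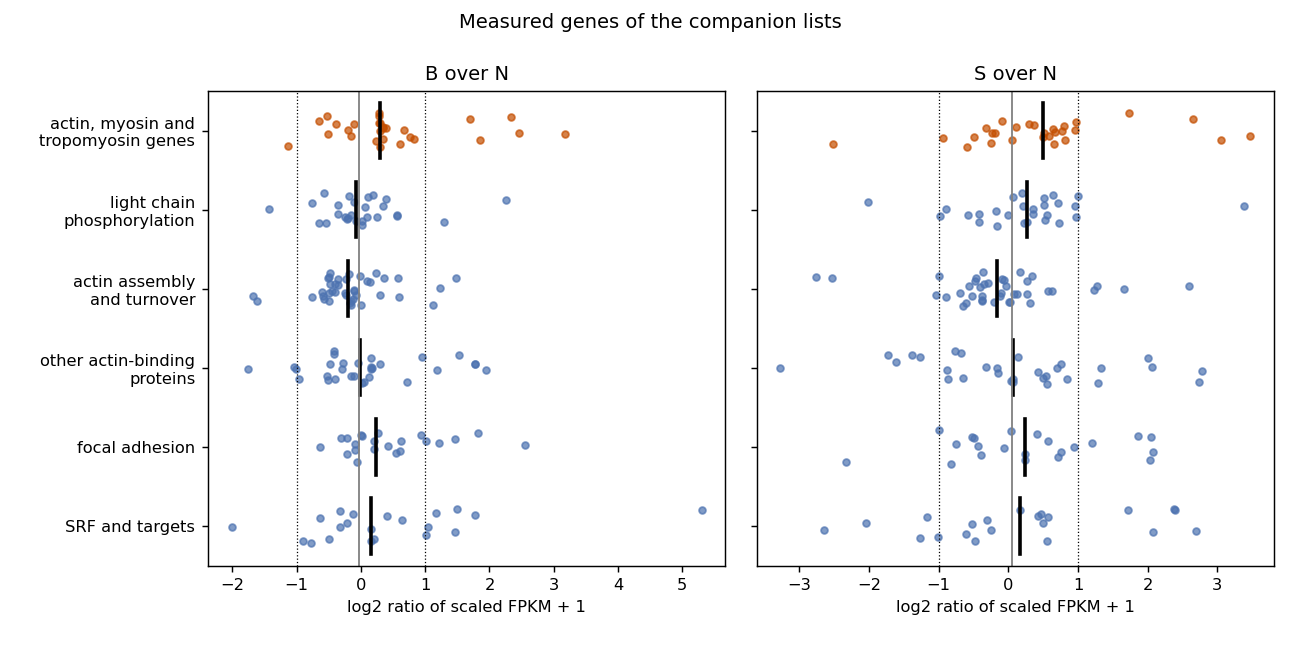
Each point is 1 measured gene of the members (orange) or of a list of related genes (blue), placed by its log2 ratio of scaled FPKM plus 1, for B over N and S over N. Black bars are medians, the grey line is the median of all measured protein-coding genes (-0.03 and 0.06), dotted lines mark 2-fold, and vertical scatter within a row is only for legibility.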

How the data were processed

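Per the labels' protocols, total RNA of sorted cells pooled from 4 mice per population was preamplified from poly(T) and random primers, made into libraries and sequenced with paired reads of 75 bases. The deposited values are FPKM per Ensembl gene, 1 file per library. The file headers say FPKM for N and S, and the B values were taken as FPKM too. Among low values of single-exon genes of 3000 bases or more, 95.7% to 97.9% lay within 0.1 of a whole fragment in the 3 libraries. The depth was chosen to make that share largest, so 20%, the level by chance at a fixed depth, is no fair comparison. Such steps arise from any count divided by length and scaled, so they cannot tell FPKM from other such units. The submitters' processing notes list TopHat2 2.0.12, Cufflinks 2.1.1, DESeq2 and mm10 without saying what each did. The annotation used for counting is not given in the sources used here. Symbols were found for 49195 of 49452 rows (gene name table, then GENCODE M21, which also gave the biotype).

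Rows of 1 symbol were summed. Each library was scaled by the median of its ratios to the geometric mean, taken across 18559 genes detected in every library (factors N 1.10, B 0.981, S 0.923). Genes whose mean reached 1 were kept, and a log2 ratio (pseudocount 1) of at least 1 in size was counted as a difference. With 1 library per group no test was possible. Folds are ratios of scaled FPKM without pseudocount. The members, lists and rules were chosen with earlier results of these data known. Measured members are named, except 1 that is not reported here. Up to 4 genes per related list, those with the largest log2 ratio in size among genes with a mean of at least 5, are named, and others are said to be outside the rule. The arithmetic of the 2-fold rule was checked on simulated data, which says nothing of how the calls would repeat in other mice. Fragment numbers assume the longest coding transcript and cover counting error only. Python 3.11.15, pandas 2.3.3 and numpy 2.4.6 were used.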

Additional observations from a re-analysis of the deposited data

How the results depend on the processing

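The 6 counts and 3 medians were recomputed under other scalings, pseudocounts, filters, row choices and, for counts, a 1.5-fold bound, and medians moving by over 0.1 on the log2 scale or counts by over 1.5 times are given. For B over N, the median was 0.16 with values as deposited, 0.44 on the same total of nuclear protein-coding genes and 0.026 with no filter. The higher count was 3 and the lower 0 with a pseudocount of 5, the higher count was 2 where the mean had to reach 5, and the counts were 9 and 2 at 1.5-fold. For S over N, the median was 0.32 as deposited, 0.61 with a pseudocount of 0.1, 0.28 with a pseudocount of 5 and 0 with no filter, while the lower count was 2 as deposited and the counts were 12 and 3 at 1.5-fold. For S over B, the higher count was 0 as deposited, with factors from nuclear protein-coding genes, on the same total and with a pseudocount of 5, and it was 2 with a pseudocount of 0.1 and 6 at 1.5-fold. The lower count was 0 with a pseudocount of 5 and 1 with a mean of at least 5, where the median was 0.20. With a pseudocount of 5, Cnn2 and Tpm2 passed 2-fold neither in S over B nor in B over N. Actn1, Myh14 and Myl9 in both bulge libraries over N, and Cnn2 and Myo9a in S over N, passed it under all 6 scalings, pseudocounts and row choices. As deposited, the median of all measured protein-coding genes shifted by -0.14 for B over N and -0.21 for S over N, and on the same total by 0.12 for B over N. No called ratio changed sign. No paired analysis was possible because each population is 1 library, and for the same reason no replicate could be left out. Depth limits the low members: 3 fragments on a 2 kb transcript correspond to 0.0424 to 0.0478 FPKM.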
